A study of Mus musculus with 12 samples.

Results

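Sox9 High and Sox9 Negative are the ends of a reporter range in the mouse intestinal epithelium, and the comparison between them was read from 6 of the 12 RNA sequencing libraries of the series, 3 on each side, over all 16577 genes (of 30265 in the table) with a value of 10 or more in no fewer than 3 of the 12. The mice were C57Bl/6 and carried a Sox9-GFP reporter in every group, which published work describes as a bacterial artificial chromosome transgene in which Sox9 regulatory sequence drives green fluorescent protein. Intestinal epithelial cells were sorted by the brightness of that reporter into 4 gates: Sox9 High, Low, Sublow and Negative. Each library, replicate A, B or C of its group, was made from 12000 cells by removing ribosomal RNA from total RNA, with a SMARTer Pico kit, and was read from 1 end. Age, sex, intestinal region and the number of animals were not given in the sources used here, nor whether replicates came from separate mice, so p-values measure only the spread between these samples. The gates are ranges of reporter brightness and not pure cell types, and the labels name no treatment or gene deletion in any group. Epcam, a surface protein of epithelia, was read on both sides and was lower in High, at 14192 ± 592 against 25733 ± 2979 in Negative (mean and SD, n = 3 each). That gene alone cannot show how pure the sorted cells were.

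SOX9 is a transcription factor of the crypt, the pocket in which the intestinal epithelium is renewed. Its reporter is brightest in rare secretory cells. Enteroendocrine cells are the hormone-releasing cells of the gut: a cascade of transcription factors that begins with Neurog3 turns on peptide hormones, the granins that pack them and the calcium-triggered machinery that releases them. Tuft cells are chemosensory cells made under the factor Pou2f3, which sense luminal cues with the taste pathway and signal to the immune system with lipid mediators and cytokines. Enterocytes, the absorptive cells that make up most of the villus, carry digestive enzymes on a brush border of microvilli and rely on the factors Hnf4a, Hnf4g, Cdx2 and Gata4.

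The High libraries held 14452156 to 15822864 reads assigned to genes and the Negative libraries 13390477 to 16520656. Values below are normalised read counts, for replicates A, B and C in that order, and log2 differences are High minus Negative on the log2(value + 1) scale, each with its standard error. Called means a Benjamini-Hochberg adjusted p below 0.05 from limma over all tested genes. By that rule 9054 genes (54.6%) differed, 4776 (28.8%) higher and 4278 (25.8%) lower in High, so a list with about those shares called is near the background. At least 8-fold differences were called for 1425 genes higher and 602 lower in High, and at least 32-fold ones for 489 and 128. Scaling was not neutral: the deposited values summed to a higher total in every Negative library than in any High one, while the read totals overlapped. Setting all totals equal moved the median log2 difference over all tested genes to 0.50, against 0.03 as deposited and -0.15 with quantile scaling. Differences under about 0.5 on the log2 scale therefore depend on the scaling. Quantile scaling moved some larger differences further. The median of the mitochondrial genome went from -1.9 to -1.16, and that of the taste genes from 4.85 to 3.94. In sorted bulk material, fewer cells of a type and less RNA per cell cannot be told apart.

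**Figure D1:**
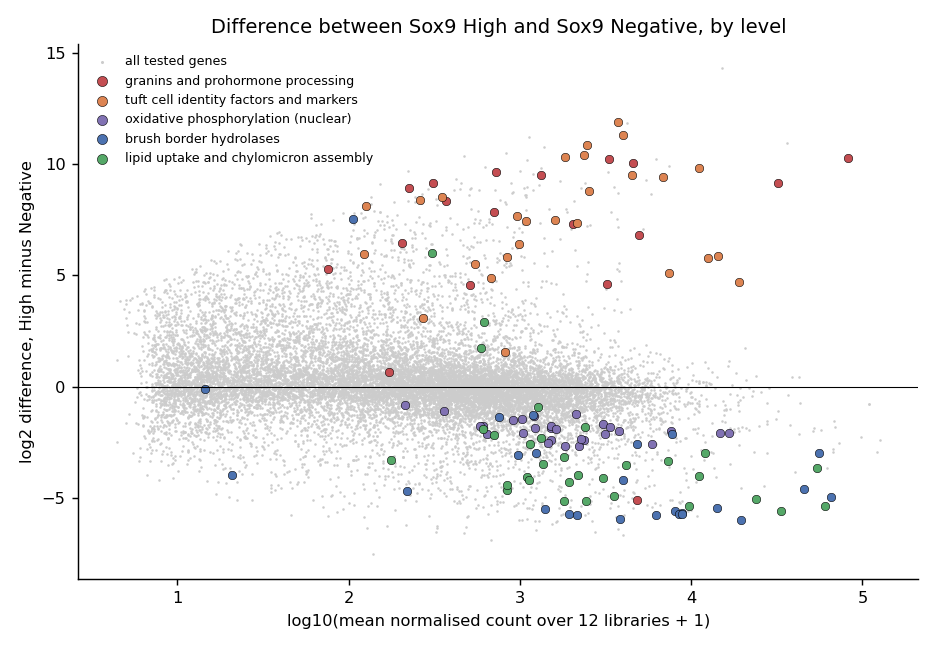
Each point is 1 of the 16577 tested genes, with its mean level over the 12 libraries on the horizontal axis and its log2 difference, High minus Negative, on the vertical axis. Members of 5 gene lists are coloured. Granin and tuft genes lie above 0, except the convertase Pcsk5 at -5.10, and the oxidative phosphorylation genes all lie below 0.

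Sox9, on which the cells were sorted, measured 18857, 21059.5 and 20868 in High, against 703, 383 and 725 in Negative, and the gap follows from the sort. The 15 largest rises among genes with a mean of at least 100 included Nts, Sh2d7, Gcg, Pyy, Gip, Sh2d6, Afp, Amigo2, Siglecf, Basp1, Rgs13, Chgb, Cck and Scg2. Of these, Nts, Gcg, Pyy, Gip and Cck encode gut peptide hormones, Chgb and Scg2 encode granins, and Sh2d7, Sh2d6, Siglecf and Rgs13 are markers of tuft cells. Afp encodes alpha-fetoprotein, a serum protein of the fetal liver and yolk sac. It read 6758, 4532 and 4899 in High, against 7.39, 0 and 2.28 in Negative. The 15 largest falls were Preb, Defa23, Gsta1, Reg3a, Fam151a, Reg1, Slc2a2, Slc2a7, Ugt2b5, Slc5a4a, Hsd17b6, Gsta2, Cyp1a1, Gstm3 and Cyp2b10, which include sugar transporters, detoxifying enzymes and antimicrobial lectins. Preb was erratic beyond the 2 gates, with 0 in 5 of the 12 libraries.

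All 27 tested genes of the tuft list and 23 of the 26 enteroendocrine transcription factors rose in High, against 28.8% of all tested genes, and most members of each enterocyte list fell, against 25.8%. The lists were chosen with earlier results of these data known, so these shares are a description and not a test. They also share some genes, so the counts of the lists are not independent. A gene could pass the filter through the libraries of 1 gate alone, and one that passed through High alone had to be higher there, so shares of tested members are not shares of all members. Below the filter lay 120 of 1208 listed genes, among them 5 of 19 hormone, 5 of 18 taste and 2 of 29 tuft genes. Insm1, Nkx2-2, Neurod1, Pax6, Isl1, Rfx6, Lmx1a, Fev, Myt1 and St18 all rose, with a list median of 5.63 on the log2 scale against 0.03 over all tested genes. Neurod1, a basic helix-loop-helix factor of early hormone cells, measured 5934, 6555 and 8737 in High, against 21.1, 20.0 and 20.5 in Negative (log2 difference 8.34 ± 0.42, adjusted p = 1.32e-08). Every High library lay more than 100-fold above every Negative library. Rfx6, which acts later in the same cascade, measured 4027, 3874 and 4105 in High, against 11.6, 0 and 11.4 in Negative (log2 difference 9.54 ± 0.87). Isl1 measured 3584, 3956 and 3008 in High, against 24.3, 3.08 and 2.28 in Negative, and 1 Negative library, A, held most of the reads on that side. Neurog3, the factor that starts the cascade, was not called. It measured 25.3, 12.9 and 6.76 in High, against 41.2, 0 and 19.4 in Negative (log2 difference 0.57 ± 1.11, adjusted p = 0.691), and the libraries of the groups overlapped. Hhex, a factor of somatostatin cells in the pancreas, and Nkx6-3, a factor of gastric endocrine cells, were the 2 members that fell, by 1.6-fold and 2.19-fold. Neither call was firm. Hhex was lost without High A, High C, Negative A or Negative B (adjusted p = 0.0576 to 0.106) and Nkx6-3 without High B, High C, Negative A or Negative C (adjusted p = 0.0564 to 0.12), and both with equal totals.

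Of 14 tested gut peptide hormones, 11 rose in High and none fell (median log2 difference 8.48). Nts, which encodes neurotensin, headed the largest rises, with 48416, 42842 and 73239 in High, against 0, 3.08 and 3.42 in Negative. Only 5 reads of it were found in the 3 Negative libraries together, which gives a depth-adjusted ratio of 27400 (95% counting interval 11700 to 84300). Gip, the glucose-dependent insulinotropic peptide of K cells, measured 111408, 138271 and 120100.0 in High, against 461, 4.61 and 90.1 in Negative (log2 difference 10.95 ± 1.11). The Negative libraries disagreed widely, with most of the reads in A. Cck, the cholecystokinin of I cells, measured 19561, 31266 and 17713 in High, against 38, 3.08 and 37.7 in Negative. Sct, which encodes secretin, measured 20405, 25156 and 19413 in High, against 67.6, 43.1 and 47.9 in Negative (log2 difference 8.67 ± 0.27, adjusted p = 1.03e-09), and its Negative values were even. Ghrl and Tac1, which encode ghrelin and substance P, rose by 8.95 and 8.28 on the log2 scale. Gcg, the source of the glucagon-like peptides, measured 15101, 15848 and 14016 in High, against 29.6, 0 and 1.14 in Negative, where A held nearly all of the reads. Pyy, the peptide YY of L cells, had 2 reads in all in Negative, a ratio of 5370 (95% counting interval 1490 to 44400). Sst, the somatostatin of D cells, was not called: it measured 1036, 430.3 and 746 in High, against 583, 1.54 and 205 in Negative (adjusted p = 0.0658), with overlapping libraries. It was called higher without Negative A (adjusted p = 0.00813) or Negative C (adjusted p = 0.0484).

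The proteins that pack and mature these hormones followed, with 16 of 18 tested granin and prohormone processing genes higher in High and 1 lower (median 8.11). Chgb, which encodes chromogranin B, measured 360161, 288326 and 208621 in High, against 626, 44.6 and 381 in Negative (log2 difference 10.29 ± 0.80, adjusted p = 3.82e-07). Chga, chromogranin A, measured 150003, 108273 and 90732 in High, against 329, 120.0 and 199.7 in Negative (log2 difference 9.15 ± 0.39). The whole list made up 3.59% ± 0.762 (SD, n = 3) of the reads in High and 0.0698% ± 0.00366 in Negative. Cpe, the carboxypeptidase that trims cleaved hormones, rose by 10.05, and Scg2, Scg3 and Scgn by 10.22, 9.50 and 9.66. The prohormone convertase Pcsk1 measured 6911, 6709 and 7191 in High, against 54.9, 46.1 and 30.8 in Negative. Pcsk5, a relative that cleaves growth factor precursors, went the other way with 341, 545 and 207 in High, against 10698, 12529 and 11621 in Negative (log2 difference -5.10 ± 0.38). Pcsk2, the convertase of pancreatic alpha cells, was not called (log2 difference 0.66 ± 0.29, adjusted p = 0.075). It was called higher in 5 alternatives: without Sublow C, without all 3 Sublow libraries, in a fit of the 6 libraries alone, with library weights and with equal totals (adjusted p = 0.00535 to 0.0343).

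The serotonin pathway was split between synthesis and removal. Tph1, the rate-limiting enzyme of serotonin synthesis in enterochromaffin cells, measured 5821, 5735 and 5679 in High, against 75, 33.8 and 71.9 in Negative (log2 difference 6.64 ± 0.26). The vesicular transporters Slc18a1 and Slc18a2 rose by 3.96 and 2.30, and Ddc, which completes the synthesis, by 0.95. The 3 genes of the list that fell all act on serotonin after release: Slc6a4, the uptake transporter, at 129, 159 and 166 in High, against 889, 1027 and 1052 in Negative, and the monoamine oxidases Maoa and Maob, which fell by 16.3-fold and 12-fold. Trpa1, an irritant-sensing channel of enterochromaffin cells, measured 5179, 3058 and 4317 in High, against 3.17, 0 and 9.13 in Negative.

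Nutrient receptors rose with the hormones. Of 17 tested sensing receptors 15 rose and none fell. Ffar3, a receptor for short-chain fatty acids, and Gpr119, a receptor for oleoylethanolamide, had no read in any Negative library. Against a floor of 3 counts over the group, they were at least 685-fold and 460-fold higher in High. Ffar1, the long-chain fatty acid receptor, had 3 reads in Negative, a ratio of 391 (95% counting interval 134 to 1900). Casr, the calcium and amino acid sensor, measured 447, 622 and 487 in High, against 8.45, 3.08 and 0 in Negative. Cnr1, the cannabinoid receptor, measured 1696, 1742 and 1998 in High, against 10.6, 0 and 3.42 in Negative. Receptors that restrain release rose as well: the somatostatin receptor genes Sstr1 and Sstr5 by 7.85 and 7.58, and Galr1, a galanin receptor gene, by 6.96.

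Of 28 tested exocytosis genes 25 rose (median 3.55): Snap25 and Stx1a, which form the fusion complex, by 6.23 and 5.58, the calcium sensor Syt7 by 4.40, and Cadps, which primes dense-core granules, by 8.84. Of 27 tested voltage-gated and potassium channel genes 22 rose. Abcc8, the sulfonylurea receptor subunit of the ATP-sensitive potassium channel, measured 3224, 3955 and 4054 in High, against 10.6, 12.3 and 5.71 in Negative, and its pore partner Kcnj11 had 714 reads in High and 1 in Negative, a ratio of 523 (95% counting interval 93.6 to 20700). The P/Q-type calcium channel gene Cacna1a measured 11269, 11822 and 10752 in High, against 352, 268 and 315 in Negative (log2 difference 5.18 ± 0.19).

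The promoter of Sct is shown because secretin was even across the libraries of each group and because basic helix-loop-helix factors such as NEUROD1 bind E-boxes. The sequence is that of RefSeq (GRCm38.p6) for the 250 bases before the start of transcription, on the minus strand at chr7:141279134-141279383, with the letters CAGATG and CAGCTG in capitals.
Sct: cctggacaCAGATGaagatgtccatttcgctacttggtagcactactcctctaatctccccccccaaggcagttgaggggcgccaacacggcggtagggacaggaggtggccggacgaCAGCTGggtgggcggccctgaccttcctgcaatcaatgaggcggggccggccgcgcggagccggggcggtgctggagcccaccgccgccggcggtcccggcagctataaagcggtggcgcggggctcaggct
Over windows of 250 bases before to 50 after the start, searched on both strands, 8 of the 11 hormones that rose (72.7%) held CAGATG or CAGCTG, against 30.4% of all 27025 promoters of the table. Among the granin and processing genes that rose, the count was 5 of 13 with a promoter in the table, and among the transcription factors 7 of 18. Over all genes that rose the share was 26.8%, and over all that fell 25.0%. Sugar transport genes that fell held the letters in 7 of 15 cases (46.7%), so they were not particular to enteroendocrine genes. A match of letters is a description and not a bound site.

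**Figure D2:**
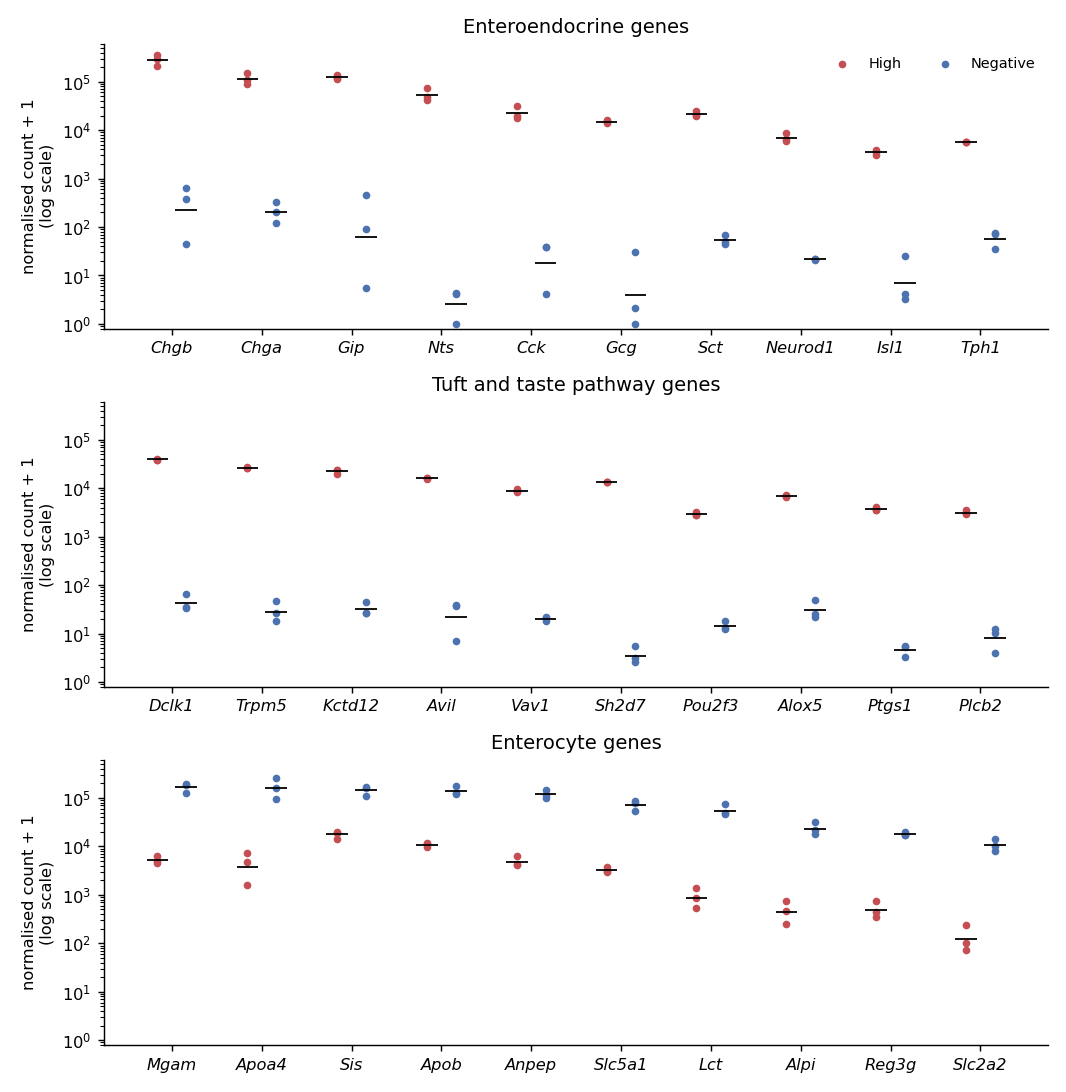
Normalised read counts plus 1 (log axis) of 10 enteroendocrine, 10 tuft and taste pathway and 10 enterocyte genes, with 1 point per library (High left of Negative, 3 each) and a bar at the mean of the logs. In each of the 30 genes the 3 High libraries and the 3 Negative libraries do not overlap, which also held for 64.9% of all tested genes.

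Every tested gene of the tuft list rose, and the High libraries were close to each other. Together its 27 tested genes made up 2.53% ± 0.0542 (SD, n = 3) of the reads in High and 0.0305% ± 0.00786 in Negative, and the list median was 7.48. Sox9, the gene sorted on, is itself 1 of the 27. Pou2f3, the lineage factor, measured 2813, 2869 and 3277 in High, against 11.6, 12.3 and 17.1 in Negative (log2 difference 7.68 ± 0.31, adjusted p = 3.03e-09). Dclk1, a microtubule-linked kinase and the usual tuft marker, measured 38975, 38051 and 41071 in High, against 33.8, 32.3 and 66.2 in Negative (log2 difference 9.85 ± 0.41). Both genes were far above the Negative libraries in every High library, with little spread within High. Avil, which encodes the actin-binding protein advillin, rose by 9.53, the homeobox factors Hmx2 and Hmx3 by 5.97 and 8.54, and Spib by 7.48. Gfi1b, a zinc finger repressor, had 3 reads in the Negative libraries and a ratio of 374 (95% counting interval 128 to 1810). Il17rb, a subunit of the receptor for interleukin 25, rose by 5.51. Il25 itself measured 16.2, 38.7 and 51.5 in High, against 0, 7.69 and 0 in Negative.

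The taste pathway rose as a chain from receptor coupling to channel. Of 13 tested genes 11 rose and none fell (median 4.85, or 4.55 with the 2 genes that had no read in Negative, Calhm3 and Vmn2r26, set at their bound). Gnat3, the gustducin alpha subunit, had 2 reads in the Negative libraries, a ratio of 425 (95% counting interval 117 to 3510). Plcb2, the phospholipase downstream of it, measured 3073, 2932 and 3501 in High, against 9.5, 3.08 and 11.4 in Negative (log2 difference 8.61 ± 0.48). Itpr3, the calcium release channel downstream, differed less, with 10786, 10053 and 10492 in High, against 6084, 6920.2 and 6117 in Negative (log2 difference 0.71 ± 0.13, adjusted p = 0.000414). Trpm5, the channel that ends the pathway, measured 26565, 26473 and 27153 in High, against 25.3, 16.9 and 45.6 in Negative (log2 difference 9.90 ± 0.38). Sucnr1, the receptor for microbial succinate, measured 208, 169 and 465 in High, against 0, 3.08 and 9.13 in Negative. Tas1r3, a sweet and umami receptor subunit, was not called (211, 171 and 242 in High, against 153, 135 and 219 in Negative).

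Some lipid mediator enzymes and genes usually known from leukocytes rose as well. Of 15 tested genes of the eicosanoid and type 2 list 9 rose, 2 fell and 4 were not called. The leukotriene genes Alox5 and Alox5ap rose by 7.84 and 9.59. Ptgs1, cyclooxygenase 1, measured 3561, 3596 and 4072 in High, against 4.22, 4.61 and 2.28 in Negative, and Hpgds, the prostaglandin D synthase, rose by 6.26. Lta4h, which makes leukotriene B4, fell, with 1016, 970.3 and 866 in High, against 5915, 6980.2 and 6520.1 in Negative, as did the secreted phospholipase gene Pla2g2a (30.6-fold), whereas Ltc4s, which makes the cysteinyl leukotrienes, rose by 3.59. Of 31 leukocyte-type signalling genes 10 lay below the filter, 14 rose and 1, Syk, fell (2.27-fold). The exchange factor Vav1 measured 8988, 9514 and 8267 in High, against 16.9, 20.0 and 20.5 in Negative, and the lipid phosphatase Inpp5d and the kinase subunit Pik3cg rose by 9.15 and 9.23. Ptprc, which encodes CD45, measured 2110.2, 1933 and 3363 in High, against 77.1, 80.0 and 82.2 in Negative. Of 13 tested T-cell genes 1, Lck, was called, and it rose. Cd3e measured 18.9, 16.6 and 7.6 in High, against 8.45, 27.7 and 12.6 in Negative, and Cd3g 26.2, 13.8 and 5.07 in High, against 15.8, 33.8 and 21.7 in Negative. Laptm5, Itgb2 and Lcp2, which leukocytes of most kinds express, were not called and averaged 7.22 ± 3.84, 8.48 ± 6.73 and 27.8 ± 5.34 in High, against 8.69 ± 3.59, 8.28 ± 4.82 and 38.6 ± 13.6 in Negative (SD, n = 3 each). The part of leukocytes in these differences was not tested.

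The promoter of Kctd12 is shown because it was the 1 member of the tuft list whose window held the octamer ATGCAAAT, the letters that POU factors such as POU2F3 recognise. Kctd12, a potassium channel tetramerisation domain protein, measured 23784, 19669 and 23883 in High, against 44.4, 26.1 and 26.2 in Negative (log2 difference 9.44 ± 0.39). The sequence is the 250 bases before the RefSeq start on the minus strand of GRCm38.p6, at chr14:102982638-102982887, with the octamer in capitals.
Kctd12: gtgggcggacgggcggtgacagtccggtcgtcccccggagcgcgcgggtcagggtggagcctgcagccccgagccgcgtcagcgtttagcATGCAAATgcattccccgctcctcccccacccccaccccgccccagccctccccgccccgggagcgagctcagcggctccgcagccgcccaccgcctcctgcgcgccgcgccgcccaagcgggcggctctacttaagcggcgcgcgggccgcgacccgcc
The octamer was in 1 of 23 tuft genes (4.35%) and in 2 of 10 taste genes that rose, against 1.75% of all promoters.

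Digestive enzymes of the enterocyte brush border fell in High. Of 25 tested brush border hydrolases 23 fell and 1 rose in High (median -4.70), and the list made up 0.309% ± 0.0469 of the reads in High and 3.77% ± 0.475 in Negative (SD, n = 3 each). Lct, the lactase that splits milk sugar, measured 876, 1416 and 525 in High, against 46738, 74132 and 48196 in Negative (log2 difference -5.99 ± 0.79, adjusted p = 3.53e-05). Ggt1 and Enpep fell by 62-fold and 52-fold. Sis, the sucrase-isomaltase, fell less, with 14569.9, 20218 and 19088 in High, against 107551, 164380.0 and 166459 in Negative (log2 difference -3.01 ± 0.44), and Dpp4, which inactivates incretins, fell by 4.39-fold. No hydrolase that fell had a High library as high as any Negative one. The groups did not overlap in 64.9% of all tested genes either. The exception in direction was Alpl, the tissue-nonspecific alkaline phosphatase, which had 3 reads in the Negative libraries and a ratio of 291 (95% counting interval 99.2 to 1410).

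Promoters of Lct, Sis and Alpi are shown because they belong to the same digestive group and hold letters recognised by enterocyte factors. All are the 250 bases before the RefSeq start on the minus strand of GRCm38.p6. Lct lies at chr1:128328319-128328568, with GATA letters (AGATAA) in capitals. Sis lies at chr3:72967864-72968113, with CDX letters (TTTATTG) in capitals. Alpi, the intestinal alkaline phosphatase, lies at chr1:87101607-87101856, with HNF4 letters (CAAAGTCCA) in capitals.
Lct: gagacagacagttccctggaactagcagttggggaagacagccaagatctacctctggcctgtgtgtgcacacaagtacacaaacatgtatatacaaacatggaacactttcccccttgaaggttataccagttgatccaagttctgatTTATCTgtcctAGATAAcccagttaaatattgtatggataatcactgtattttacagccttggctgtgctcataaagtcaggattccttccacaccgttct
Sis: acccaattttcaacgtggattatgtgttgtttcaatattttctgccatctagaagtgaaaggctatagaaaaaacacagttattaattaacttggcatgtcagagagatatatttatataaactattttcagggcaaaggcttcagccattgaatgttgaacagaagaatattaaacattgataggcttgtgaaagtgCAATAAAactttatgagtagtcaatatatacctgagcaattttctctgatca
Alpi: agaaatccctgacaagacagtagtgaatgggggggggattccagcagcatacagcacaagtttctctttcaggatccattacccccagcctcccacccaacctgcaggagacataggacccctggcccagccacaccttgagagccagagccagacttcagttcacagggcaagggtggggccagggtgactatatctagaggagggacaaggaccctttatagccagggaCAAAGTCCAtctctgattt
Alpi measured 456, 749 and 253 in High, against 21963, 31458 and 18451 in Negative (log2 difference -5.72 ± 0.69). Both strands were searched, with at most 1 mismatch for HNF4 and none for the others, so the capitals may be the reverse complement of the letters named. HNF4 letters were in 8 of 19 hydrolases that fell and had a promoter in the table (42.1%), against 8.53% of all promoters. GATA letters were in 6 of 19 (31.6%), against 11.4%, and CDX letters (TTTATGG or TTTATTG) in 4 of 19 (21.1%), against 7.46%. Over all genes that fell, the shares were 9.19% for HNF4, 7.33% for GATA and 4.93% for CDX. GATA letters were not particular to genes that fell, being in 4 of 11 hormones that rose (36.4%). In sugar transport genes that fell, GATA letters were in 2 of 15 and CDX letters in 1 of 15. In lipid uptake genes that fell, each was in 3 of 21.

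Uptake genes fell with the enzymes. Of 18 tested genes of sugar transport and fructose use 17 fell. Slc2a2, the basolateral glucose transporter, measured 103, 242 and 70.1 in High, against 7934, 13959 and 10380.4 in Negative (log2 difference -6.43 ± 0.75), and Slc5a1, the sodium-coupled glucose transporter, measured 2927, 3809 and 3126 in High, against 52655, 87931 and 79546 in Negative (log2 difference -4.46 ± 0.46). Khk, which takes the first step of fructose use, fell by 27.9-fold. Of 19 tested amino acid and peptide transport genes 12 fell and 3 rose. Slc7a9 and Slc6a20a fell by 22.2-fold and 54.3-fold and Slc15a1, the peptide transporter, by 5.52-fold. Slc6a19, the main neutral amino acid transporter, was not called (2599, 2855 and 3376 in High, against 3242, 4967 and 4386 in Negative). The 3 that rose were Slc1a5, Slc7a5 and Cltrn, the first 2 by 2.20 and 2.63. Cltrn encodes collectrin, a partner of amino acid transporters, and had 2 reads in Negative, a ratio of 207 (95% counting interval 56.9 to 1710).

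Fat handling followed, with 27 of 31 tested lipid uptake and chylomicron genes lower in High and 3 higher (median -3.67). Apoa4, an apolipoprotein of chylomicrons, measured 4763, 7360.5 and 1575 in High, against 161652, 259333 and 95232 in Negative (log2 difference -5.38 ± 0.95). Its Negative libraries differed among themselves by more than 2-fold, yet none came near High. Apoa1, Mttp, Fabp2 and Mogat2 fell by 48.3-fold, 32.9-fold, 41.1-fold and 35.2-fold. Apob, the scaffold of the particle, measured 9797, 11917 and 11053 in High, against 118342, 177333 and 125541 in Negative (log2 difference -3.67 ± 0.48). The 3 that rose were Mgll, the monoacylglycerol lipase, at 902, 1065 and 1079 in High, against 14.8, 7.69 and 27.4 in Negative, Scarb1, a lipoprotein receptor, which rose by 2.92, and Acsl3, by 1.74. Cholesterol synthesis stood apart from fat uptake: 9 of 22 tested genes rose (40.9%) and 3 fell (13.6%), against 28.8% and 25.8% of all tested genes. Sqle, the squalene epoxidase, measured 1388, 1381 and 1656 in High, against 677, 398 and 542 in Negative. Fdft1, the squalene synthase, was higher by 1.52. With equal totals 14 genes of the list rose. The synthesis enzyme Sc5d and the sterol carrier Stard4 were among the 3 that fell, by 2.44-fold and 4.27-fold.

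Most listed bile acid and detoxifying genes were lower in High. Of 15 tested bile acid and ileal genes 14 fell, among them Slc51a, a subunit of the basolateral exporter, at 46.9, 82.9 and 25.3 in High, against 2431, 3442 and 3788 in Negative, and the ileal binding protein Fabp6, which fell by 37.8-fold. Of 24 tested cytochrome P450 and oxidation genes 21 fell and 1, Adh1, rose (1.46). Cyp3a25 and Cyp2b10 fell by 61.2-fold and 68.2-fold. Of 28 tested conjugation enzymes and exporters 21 fell and 3 rose, and by symbol the glutathione transferases fell in 19 of 23 cases and rose in 2. All tested cytochrome P450 genes by symbol were less one-sided: 27 of 56 fell, 9 rose and 20 were not called. Gsta1 measured 69.5, 261 and 65 in High, against 8897, 14249 and 9995 in Negative (log2 difference -6.66 ± 0.73). The 3 that rose were Tpmt, Sult1a1 and Gclc, the last, the rate-limiting step of glutathione synthesis, by 1.28. The Tpmt call ended without High A, High B, Negative A or Negative C (adjusted p = 0.0541 to 0.0756) and the Sult1a1 call without High C or Negative A (adjusted p = 0.0638 and 0.0541). Reads of near-identical members of the P450, glucuronosyltransferase and glutathione transferase families cannot be placed with certainty.

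Most scaffold genes of the brush border were lower as well. Of 25 tested cytoskeleton and adhesion genes 21 fell and 1 rose. Vil1, the actin bundler villin, measured 12077, 12769 and 11406 in High, against 42012, 55526 and 42619 in Negative (log2 difference -1.94 ± 0.32), and Pls1, the bundler plastin 1, measured 2184, 2255 and 1917 in High, against 31751, 42474 and 32478 in Negative (log2 difference -4.06 ± 0.38). Myo1a, the motor of the brush border membrane, and Ezr, which ties actin to that membrane, fell by 6.18-fold and 7.89-fold. The microvillar tip link genes Cdhr2 and Cdhr5 were not called (log2 differences -0.60 ± 0.46 and -0.08 ± 0.37). Of 14 tested genes of membrane mucins, ion transport and guanylins 9 fell and 3, the mucin genes Muc3a, Muc4 and Muc20, rose. By symbol, 5 of 8 tested mucin genes fell and 3 rose. Muc3 and Muc13 were among those that fell, with log2 differences of -5.11 and -1.44. Slc9a3, the sodium-proton exchanger of the brush border, measured 173, 202 and 45.6 in High, against 6807, 8850.1 and 4504 in Negative (log2 difference -5.78 ± 0.83). The anion exchangers Slc26a3 and Slc26a6 fell by 24.6-fold and 43.6-fold, the chloride channel Cftr by 10.8-fold and Guca2b, which encodes uroguanylin, by 53.9-fold. The receptor for uroguanylin, Gucy2c, was not called (11642, 11589.9 and 12009 in High, against 9150.3, 11899.6 and 9693 in Negative).

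Metal and vitamin handling followed the same direction. Of 23 tested genes of iron, zinc, copper and calcium handling 18 fell and 1, the heme oxygenase Hmox1, rose. Fth1, the ferritin heavy chain, measured 6403, 7097 and 6681 in High, against 46520.1, 70549 and 43856 in Negative, and Slc40a1, the iron exporter ferroportin, fell by 8.75-fold. S100g, the calcium-binding calbindin of the gut, measured 106, 57.1 and 53.2 in High, against 2003, 2559 and 2384 in Negative (log2 difference -5.05 ± 0.37), and Vdr, the vitamin D receptor, fell by 3.82-fold. Of 20 tested retinoid genes 12 fell and 4 rose. Aldh1a1, which makes retinoic acid, fell by 29.5-fold, and Isx, a homeobox factor that restrains carotenoid uptake, by 19.1-fold.

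Antimicrobial and antigen-presenting genes also belonged to the Negative side. All 12 tested antimicrobial enterocyte genes fell (median -4.51). Reg3g, a lectin that kills Gram-positive bacteria, measured 736, 444 and 356 in High, against 17367, 17574 and 19668 in Negative (log2 difference -5.22 ± 0.25), and Pigr, the receptor that carries immunoglobulin A to the lumen, measured 20813, 15298 and 13612 in High, against 117537, 154099 and 105463 in Negative. Of 21 tested genes of MHC presentation 18 fell. Cd74, the class II chaperone, fell by 5.46-fold and B2m, the light chain of class I, by 4.95-fold, while the class I heavy chain H2-D1 was not called. Il18, an epithelial cytokine, and Nlrp6, an inflammasome sensor, both of the villus tip list, fell by 35.2-fold and 19.8-fold. Il33, an alarmin gene, measured 3.61, 11.1 and 2.53 in High, against 266, 461 and 305 in Negative. Cd1d1, which presents lipids, was the 1 member of the MHC list that rose, with 88.4, 95.8 and 122 in High, against 9.5, 3.08 and 4.56 in Negative.

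The factors that set enterocyte identity fell in number more than in size: 30 of 36 tested genes fell and 3 rose, with a median of -1.08. With equal totals the median was -0.59 and 21 were still called lower. Hnf4g measured 707, 704 and 589.6 in High, against 11028, 12879 and 12596 in Negative (log2 difference -4.19 ± 0.27), whereas Hnf4a measured 4696, 4754 and 5555 in High, against 9656, 10820.1 and 9520.0 in Negative (2-fold lower). Maf, a leucine zipper factor of villus enterocytes, fell by 27.3-fold. Cdx2 and Gata4 fell by 1.81-fold and 3.25-fold. Zbtb16 and Cdx1 were among the 3 that rose, with log2 differences of 2.66 and 0.53. Both calls ended without 1 or more of the High or Negative libraries, and neither held without High C (adjusted p = 0.0999 for Zbtb16 and 0.0662 for Cdx1).

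**Figure D3:**
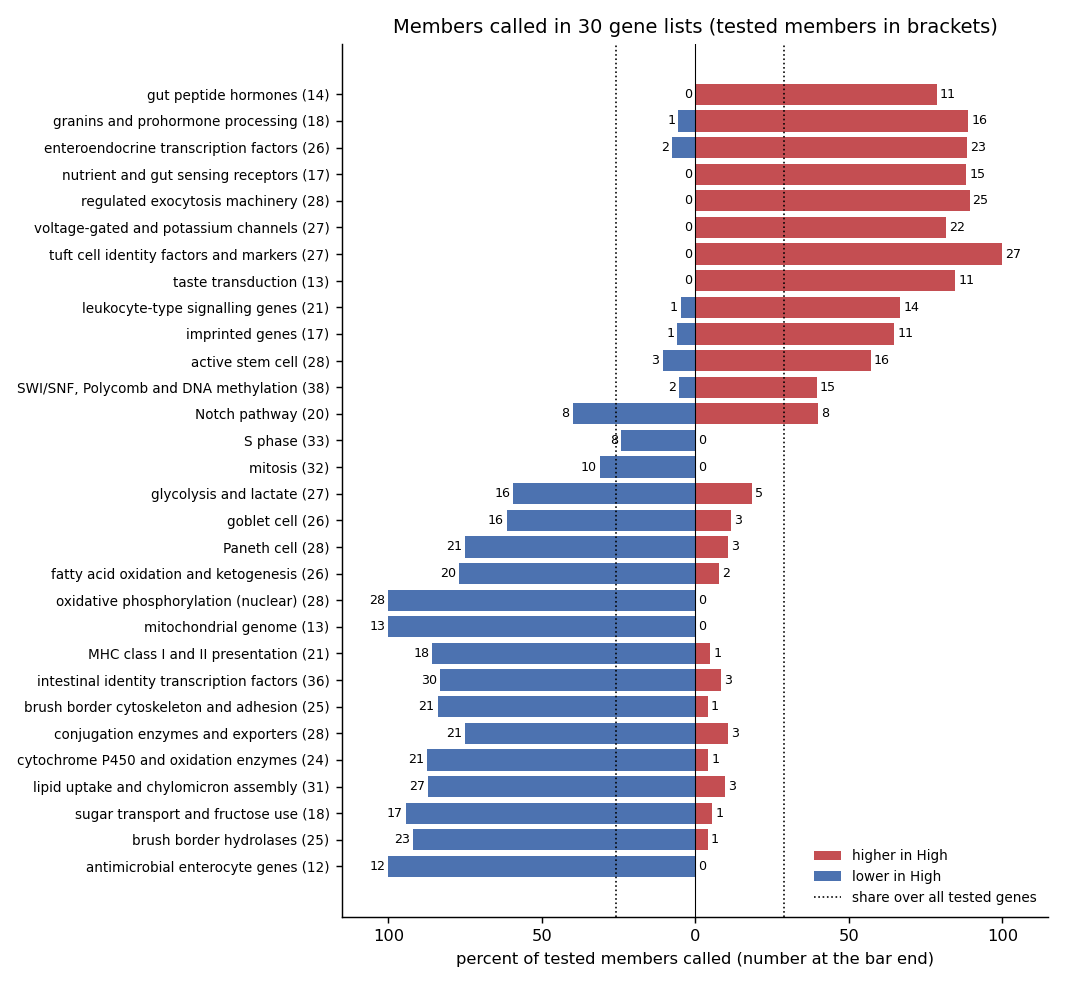
Share of the tested members of 30 gene lists called higher (right) or lower (left) in High, with the number called at the end of each bar. Dotted lines mark 28.8% and 25.8%, the shares over all 16577 tested genes. Hormone, tuft and exocytosis lists reach far past the line on the right with no member on the left. The enterocyte lists reach past the line on the left, with 0 to 3 members on the right.

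In several gene families 1 relative rose in High and another fell. The 13 pairs shown were chosen after their values were seen, so their opposite signs are given as a description. All 26 genes were called and none overlapped between the groups, which also held for 64.9% of all tested genes. Slc2a1, a glucose transporter of most cell types, measured 1109.7, 1244 and 1395 in High, against 142, 112 and 106 in Negative, opposite to Slc2a2. Krt18 measured 58610.5, 66959 and 45134 in High, against 2335, 1670.1 and 2479.6 in Negative, and Krt19 measured 2786, 2498 and 1837 in High, against 16378, 14669 and 21080.3 in Negative. Rbp4, the serum carrier of retinol, rose by 9.15 and Rbp2, the enterocyte carrier, fell by 18.3-fold. Plcb2 of the taste pathway rose and Plcb3 fell (13.2-fold), and Acsl4, which activates arachidonic acid, rose by 4.34 while Acsl5 fell by 16.4-fold. Cldn4 rose by 3.34 and the sodium pore claudin Cldn15 fell by 30.5-fold. Tuba1a, the neuronal alpha tubulin, measured 4596, 5246 and 4482 in High, against 3.17, 10.8 and 13.7 in Negative (log2 difference 9.05 ± 0.54).

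**Figure D4:**
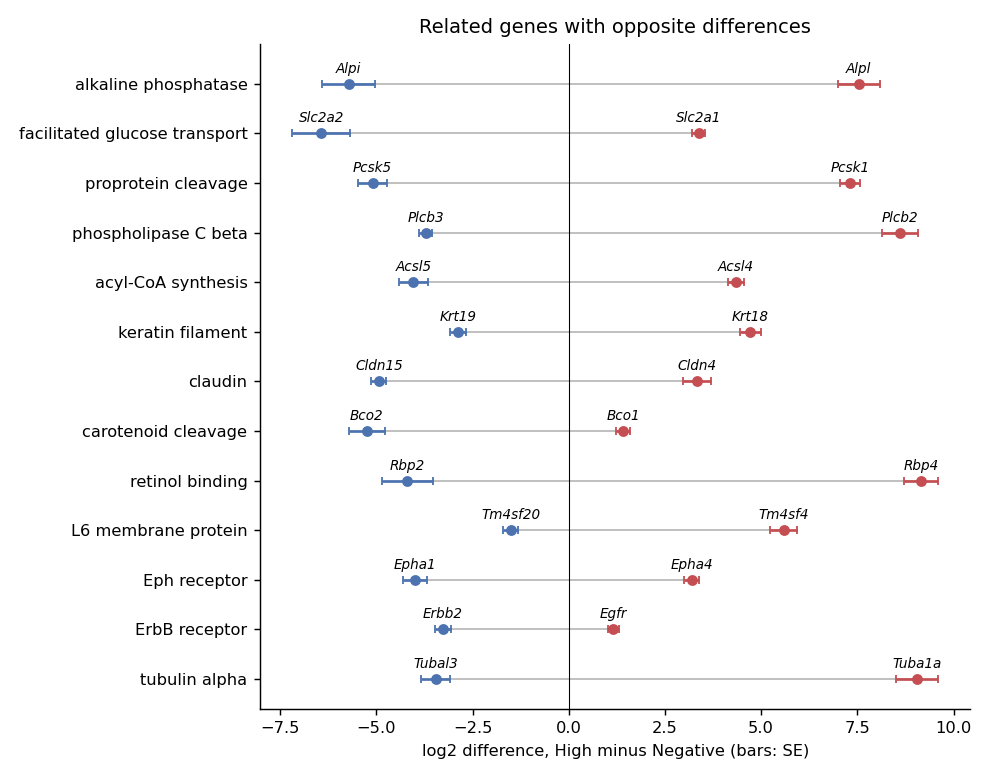
Log2 differences, High minus Negative, of 13 pairs of related genes (points, with bars of 1 SE from the fit of 12 libraries). Each line joins a pair that was chosen for lying on both sides of 0. The widest is Rbp4 at 9.15 with Rbp2 at -4.20, and the narrowest is Egfr at 1.16 with Erbb2 at -3.27.

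The other secretory types lay on the Negative side. Of 28 tested Paneth genes 21 fell and 3 rose (median -3.64). Lyz1, the Paneth lysozyme, measured 936, 103 and 1314 in High, against 13454, 28211 and 35685 in Negative (log2 difference -5.56 ± 0.75), with a wide spread in both groups, and Mptx2 fell by 56.1-fold. Of the alpha-defensins, whose copies share reads, 20 of 21 fell. The Paneth genes that rose were Kit, the stem cell factor receptor, at 2182, 2145 and 3428 in High, against 189, 165 and 220.2 in Negative, and the niche signals Wnt3, by 3.90, and Dll4, by 1.83. Of 26 tested goblet genes 16 fell and 3 rose. Muc2, the gel mucin, measured 1945, 1864 and 1298 in High, against 23836, 14602 and 28845 in Negative (log2 difference -3.69 ± 0.38), Clca1 and Zg16 fell by 12.8-fold and 22.9-fold, and Tff3 and Spdef were not called. Creb3l1, Galnt12 and Galnt3 rose by 1.39, 1.30 and 0.57. The goblet list took 0.104% ± 0.0159 of the reads in High and 0.495% ± 0.196 in Negative, against 2.18% ± 1.46 in Low and 3.42% ± 0.88 in Sublow.

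Genes of the active stem cell list were more often higher than lower in High. Of 28 tested genes of the active stem cell list 16 rose and 3 fell. Lgr5, a receptor for R-spondins and a marker of stem cells at the crypt base, measured 853, 573 and 853 in High, against 92.9, 49.2 and 59.3 in Negative (log2 difference 3.51 ± 0.44). Msi1 and Cd44 rose by 5.58 and 5.42. Olfm4, another crypt base marker, was not called: it measured 6590.3, 1830.0 and 3175 in High, against 3733, 218 and 1271 in Negative, where A held most, and was called higher without Negative A (adjusted p = 0.013). The 3 that fell were Sp5, a Wnt target, by 13.1-fold, Rnf43 and Pdgfa. The list took 0.401% ± 0.0312 of the reads in High and 0.0862% ± 0.0303 in Negative, against 1.26% ± 0.162 in Low. Sox9, the gene sorted on, is itself 1 of the 28 and 1 of the 16 that rose. Its mean was 20262 of a list sum of 53640 in High and 604 of 15910 in Negative, so part of the gap follows from the sort. Of 13 tested genes of the reserve and revival stem cell list 7 rose and 5 fell, and with quantile scaling 5 rose and 6 fell. That list took 0.0894% ± 0.00613 of the reads in High and 0.135% ± 0.0245 in Negative, a lower share in High.

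Cycling genes did not follow the stem cell genes. None of 33 tested S phase genes and none of 32 mitosis genes rose in High by limma, against 28.8% of all tested genes. The 8 (24.2%) and 10 (31.2%) that fell were near the 25.8% of all tested genes that did. Mki67, the usual marker of cycling cells, measured 2101, 1040.3 and 1242 in High, against 6131, 1572 and 3679 in Negative (log2 difference -1.24 ± 0.40, adjusted p = 0.0205), and the libraries overlapped. Its call ended without High B, High C, Negative A or Negative C (adjusted p = 0.0614 to 0.0923). The Negative libraries disagreed: the mitosis genes took 0.107%, 0.026% and 0.0639% of their reads in A, B and C, against 0.062%, 0.0332% and 0.0412% in High. Without Negative B, 23 mitosis genes were called lower, and without Negative A, High B or High C 5 each. With equal totals 2 mitosis genes were called, and 3 S phase genes were lower and 3 higher. Without Negative B, 13 S phase genes were lower, and without Negative A 1 was higher. Among inhibitors of the cycle, Cdkn1c measured 2511, 2572 and 1755 in High, against 75, 129 and 65 in Negative (log2 difference 4.69 ± 0.26), and Cdkn2b measured 137, 184 and 86.2 in High, against 1411, 1755 and 1151 in Negative (log2 difference -3.44 ± 0.46).

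Signalling lists were divided between the gates. In the Notch pathway 8 of 20 tested genes rose and 8 fell (40% each), against 28.8% and 25.8% of all tested genes. The ligands Dll4 and Jag2 rose by 1.83 and 4.00 while Jag1 and Dll1 fell by 3.23-fold and 1.98-fold. Hes1, the target through which Notch holds back secretory fate, measured 128, 46.1 and 74.3 in High, against 395, 364 and 278 in Negative (log2 difference -2.15 ± 0.32). Of 27 tested Wnt genes 13 rose (48.1%) and 4 fell (14.8%). Wnt6 and Fzd5 fell by 19.5-fold and 2.94-fold, and Nkd1 and Bambi rose by 3.13 and 3.01. Axin2, a common Wnt target, was not called (log2 difference 0.35 ± 0.25, adjusted p = 0.269). Atoh1, a factor of secretory lineages, was low in both gates, at 30.7, 19.4 and 22 in High, against 134, 84.6 and 135 in Negative (log2 difference -2.24 ± 0.29).

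Of 14 tested EGF and ErbB genes 6 fell (42.9%) and 3 rose (21.4%), against 25.8% and 28.8% of all tested genes. Erbb2 and Erbb3 fell by 9.62-fold and 2.69-fold, with the ligands Areg and Hbegf, which fell by 14.1-fold and 5.68-fold, while Egfr rose by 1.16. Of 13 tested Eph receptor and ephrin genes 7 fell (53.8%) and 4 rose (30.8%), and with equal totals 5 fell and 5 rose. Ephb2 and Ephb3, receptors of the crypt, rose by 1.41 and 2.14, and their villus ligands Efnb1 and Efnb2 fell by 1.88-fold and 2.26-fold. Of 24 tested BMP and Id genes 9 rose (37.5%) and 3 fell (12.5%), against 28.8% and 25.8% of all tested genes. Bmp2 and Id2 rose by 1.49 and 1.46, Bmp3 and the inhibitory Smad7 fell by 6.9-fold and 3.28-fold, and Id1 and Id3, usual BMP targets, were not called. With equal totals 16 BMP and Id genes rose. Inhbb, an activin subunit, had 6 reads in Negative and measured 184, 233 and 200.2 in High.

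Respiratory genes were lower in High without exception among those tested. All 28 nuclear genes of oxidative phosphorylation fell (median -1.96), and so did all 13 messenger genes of the mitochondrial genome (median -1.90). With equal totals 27 and 13 were called lower, with medians of -1.47 and -1.41. Cyc1, cytochrome c1, measured 655, 506 and 489 in High, against 3511, 3674 and 3182 in Negative (log2 difference -2.66 ± 0.15), and Sdhb, of succinate dehydrogenase, measured 759.6, 680.0 and 684 in High, against 4339, 4878 and 4231 in Negative. The cytochrome oxidase gene mt-Co1 measured 44695, 48600.5 and 41562 in High, against 214026, 295486 and 211183 in Negative (log2 difference -2.40 ± 0.22). Ppargc1a, a coactivator that drives the making of mitochondria, measured 196, 232 and 108 in High, against 3677, 5318 and 4422 in Negative (log2 difference -4.69 ± 0.39). Fatty acid oxidation fell in 20 of 26 tested genes and rose in 2, Pdk4 and Acot1, and Hadh fell by 9.53-fold. Of 27 tested genes of glycolysis and lactate 16 fell and 5 rose. Hk1 and Hk2, which phosphorylate glucose, rose by 5.07 and 3.56, Pfkl, which acts soon after, also rose, and Tpi1, Pgk1, Eno1 and Ldha, which act later, fell by 4.11-fold, 3.14-fold, 3.01-fold and 2.78-fold. Slc16a1, a lactate and butyrate transporter, fell by 8.39-fold. Gapdh, often taken as a constant, measured 3281, 4042 and 2652 in High, against 18232, 23715 and 13531 in Negative (log2 difference -2.46 ± 0.31).

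Protein synthesis and turnover genes differed by less than 2-fold at the median, and how many were called hung on the scaling. As deposited, 20 of 83 tested cytosolic ribosomal protein genes (24.1%) and 28 of 38 proteasome subunits (73.7%) fell, against 25.8% of all tested genes. None rose in either family, and the medians were -0.49 and -0.52. With equal totals the medians were -0.0033 and -0.032. In that scaling 4 ribosomal genes were lower and none higher, and 4 proteasome genes were lower and 6 higher. With quantile scaling the medians were -0.36 and -0.34, with 10 ribosomal genes lower and none higher, and 17 proteasome genes lower and 1 higher. Ribosomal protein genes have many processed copies that share reads. Mitochondrial ribosomal proteins fell in 54 of 80 cases and rose in 1 as deposited (median -0.79), with 24 lower and 4 higher with equal totals and 63 lower and 1 higher with quantile scaling. Of 23 tested genes of endoplasmic reticulum folding 8 fell (34.8%) and 2, Atf6 and Ern1, rose (8.7%), while the chaperone Hspa5 was not called. Over all tested genes the shares were 25.8% and 28.8%. With equal totals 2 of the folding genes were lower, without Negative C 5 were lower, and without Negative B Ern1 was not called (adjusted p = 0.0624).

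**Figure D5:**
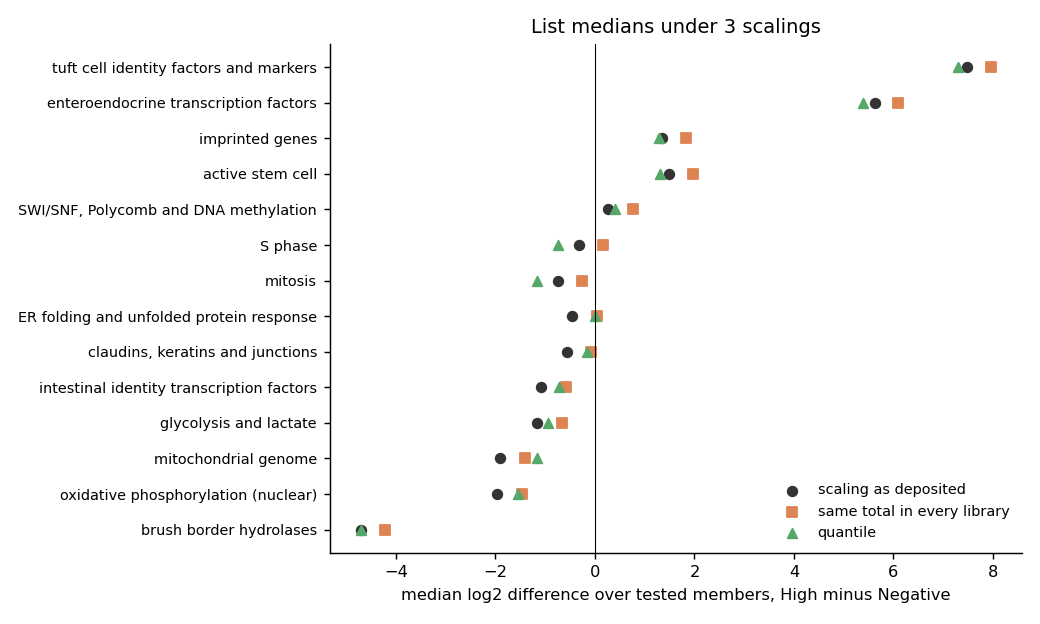
Median log2 difference over the tested members of 14 lists under the scaling as deposited (circles), equal library totals (squares) and quantile scaling (triangles). The medians of S phase and endoplasmic reticulum folding genes, which lie within 0.5 of 0 as deposited, change sign, and the other 12 medians keep their side of 0 under all 3 scalings.

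Developmental regulators and zinc finger genes rose more often than they fell. By symbol, 9 of 19 tested Hox genes rose and none fell, with Hoxa4 at 84.8, 103 and 75.2 in High, against 0, 3.08 and 4.56 in Negative, and Hoxa3 at 64.1, 119 and 124 in High, against 3.17, 15.4 and 9.13 in Negative. With quantile scaling 7 Hox genes rose and 2 fell. Zinc finger genes named Zfp rose in 181 of 372 cases and fell in 27, with a median of 0.58, with equal totals in 277 and 10, and with quantile scaling in 143 and 48. Of the protocadherins, whose clustered genes share exons, 36 of 45 rose. Among 17 tested imprinted genes 11 rose and 1, Snrpn, fell. Peg3, a paternally expressed zinc finger gene, measured 18074, 19890.2 and 20405 in High, against 47.5, 30.8 and 19.4 in Negative (log2 difference 9.27 ± 0.32), and Grb10, an adaptor of insulin signalling, measured 503, 517 and 449 in High, against 6.34, 15.4 and 13.7 in Negative. Among chromatin genes, 15 of 38 rose (39.5%) and 2 fell (5.26%), against 28.8% and 25.8% of all tested genes. With equal totals 30 rose. Tet1, a 5-methylcytosine oxidase, was higher by 3.14 and Bcl7a, of the SWI/SNF complex, by 2.01. The splicing factors Celf3 and Rbfox3 of neurons rose by 6.96 and 5.32, while the epithelial splicing factors Esrp1 and Esrp2 were not called (log2 differences 0.25 ± 0.20 and -0.03 ± 0.17).

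Families tied to excitable cells showed the same lean by symbol. Potassium channel genes rose in 36 of 62 cases and fell in 4 (median 1.94), and with quantile scaling in 32 and 13. Kcnd3 and Kcnh6, both voltage-gated, each rose by 7.35, and Kcnk5, a pH-sensitive leak channel, fell by 36.3-fold. Regulators of G protein signalling rose in 13 of 18 cases and fell in 1. Rgs13 measured 6473, 5891 and 6967 in High, against 1.06, 4.61 and 10.3 in Negative, and Rgs4 measured 2782, 2512 and 3971 in High, against 11.6, 1.54 and 11.4 in Negative. Tubulins matched by symbol rose in 11 of 15 cases and fell in 1. Tubal3, an alpha tubulin that the symbol match left out, also fell (log2 difference -3.46). The transport motors Kif1a and Kif5c, known from axons, rose by 6.43 and 5.67, while the mitotic kinesins Kif4 and Kif23 fell by 3.38-fold and 3.3-fold. Nuclear receptors fell in 22 of 43 cases and rose in 7, among them Nr4a1, Nr4a2 and Nr4a3, which respond to depolarisation in neurons. The lipid-sensing receptors Nr1h3 and Ppard fell by 5.05-fold and 6.62-fold. H1fx, a linker histone, measured 442, 546 and 329 in High, against 2.11, 1.54 and 3.42 in Negative (log2 difference 7.04 ± 0.53).

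Markers of immune cells were low on both sides. Of 13 tested T-cell genes 1, the kinase Lck, was called, at 47.8, 33.2 and 14.4 in High, against 10.6, 7.69 and 17.1 in Negative. The T-cell list took 0.0045% to 0.00635% of the reads in High and 0.00406% to 0.00475% in Negative. The Lck call ended without any 1 of 7 libraries (High A or B, Low A, B or C, Negative A or B, adjusted p = 0.051 to 0.17). Of 10 tested myeloid genes Adgre1, a marker of macrophages and eosinophils, rose and Lyz2, a lysozyme of macrophages, fell. The Adgre1 call ended without High A, High B or Negative C (adjusted p = 0.0643 to 0.0907) and the Lyz2 call without High C, Negative B or Negative C (adjusted p = 0.065 to 0.089). With quantile scaling 4 T-cell and 4 myeloid genes were lower. The myeloid list took 0.0017% to 0.00256% of the reads in High and 0.00166% to 0.00189% in Negative. Of the B and plasma cell list and the mast cell and eosinophil list, 9 genes each lay below the filter, and none of the 3 tested was called. In the 6 libraries no B and plasma cell gene below the filter exceeded 11.4, and Mcpt1, Mcpt2 and Ear2 of mast cells and eosinophils and S100a9 of neutrophils were at 0.

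Some genes named for stroma and vessels rose, while most of their companions did not, and most tested genes named for nerves rose. Vim, an intermediate filament gene of stroma, measured 4578, 2870.3 and 3108 in High, against 15.8, 0 and 19.4 in Negative, while the collagen gene Col1a1 measured 11.7, 8.29 and 21.1 in High, against 15.8, 13.8 and 11.4 in Negative. The stroma list took 0.0251% to 0.0376% of the reads in High and 0.00295% to 0.00348% in Negative, most of it Vim in High. Among 9 tested endothelial genes Prox1, which is also a factor of enteroendocrine cells, Tek and Plvap rose and Lyve1 fell, and Vwf, a clotting factor gene of endothelium, was not called (489.9, 456 and 427 in High, against 501, 472 and 419 in Negative) except with equal totals, where it was higher. Of 13 tested genes of enteric neurons and glia 9 rose (69.2%, against 28.8% of all tested genes) and 1 fell, with a median of 3.45. Chat and Snap25, which rose, are also in the tuft and exocytosis lists. The neurofilament gene Nefm and the receptor gene Ret were higher by 4.98 and 5.13. This list took 0.0834% to 0.0897% of the reads in High and 0.0845% to 0.0925% in Negative, most of it Erbb3, the 1 member that fell. The part of such cells in the other differences was not tested.

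Stress and sex-linked genes were read as checks on handling and on the animals. Of 27 immediate early and stress genes 11 rose (40.7%) and 3 fell (11.1%), against 28.8% and 25.8% of all tested genes. The nuclear receptor gene Nr4a1 was higher by 4.32, Fos was lower by 1.68-fold and Jun was not called. The Fos call ended without High A, Negative B or Negative C (adjusted p = 0.0571 to 0.111). Their part in the other differences was not tested. The Y-linked Ddx3y was read in all 6 libraries, at 999.6, 972 and 1298 in High and 864, 958 and 1049 in Negative, and was not called. Of 4 tested sex-linked genes 2 rose and none fell, with log2 differences of 0.104 to 0.538. With equal totals all 4 were called higher, and with quantile scaling 3. Xist had no entry among the values.

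Some abundant genes hardly differed. Among genes with a mean of at least 1000, the narrowest intervals around 0 included those of Supt6, a histone chaperone of transcription, at 3851, 3704 and 3713 in High, against 3526, 3906 and 3925 in Negative, and Trappc11, a vesicle tethering subunit, at 1401, 1284 and 1395 in High, against 1339, 1372 and 1358 in Negative. Rab14 measured 2448, 2377 and 2291 in High, against 2106, 2482 and 2569.7 in Negative. Supt6 and Rab14 were called higher with equal totals. Over all tested genes, 5303 (32%) had a 95% interval that lay within 2-fold of no difference.

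The gates between the ends did not always lie between them in level. Of the 4776 genes higher in High, 3375 had a mean in Low between those of High and Negative, 806 were higher in Low than in both and 595 were lower in Low than in both. Of the 4278 genes lower in High, the numbers were 2322, 551 and 1405. High had the highest mean of the 4 gates for 3958 of the genes higher there, and Negative for 3482 of the genes lower in High. The hormone list took 1.9% ± 0.164 of the reads in High and 0.00349% ± 0.00352 in Negative, against 0.296% ± 0.0305 in Low and 0.024% ± 0.0123 in Sublow. The hydrolase list, at 0.309% ± 0.0469 in High and 3.77% ± 0.475 in Negative, took 0.354% ± 0.113 in Low and 1.81% ± 1.09 in Sublow.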

How the data were processed

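Total RNA of 12 libraries, 3 from each of 4 gates of Sox9-GFP brightness, was read as gene-level values. The authors deposited 1 table of normalised signal values per gene. No aligner, counter or genome build is named in the labels (not given in the sources used here). At a tolerance of 0.01, 100% of each library's values came out as integers after division by the library's smallest step, so whole reads (counts) were recovered from the deposited signal as value over step. No unit other than this signal was used.

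A gene was tested if its value was 10 or more in no fewer than 3 of the 12 libraries, which 16577 of 30265 were. The deposited values were put on the log2(value + 1) scale, a pseudocount of 1, and fitted with limma 3.58.1 in R 4.3.3 (trend on the mean), with the 4 gates as groups and all 12 libraries in 1 fit, which share 1 estimate of the spread. The contrast was High minus Negative, with Benjamini-Hochberg adjustment over all tested genes and a threshold of 0.05. edgeR 4.0.16 and DESeq2 1.42.0 on the recovered counts were alternatives. The scripts were tested on simulated data with known changes.

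The members and gene lists were chosen with earlier results of these data known. Named genes were the 15 largest rises and falls among called genes with a mean of at least 100 and no overlap between the 6 libraries, the 10 abundant genes with the narrowest intervals around 0, and list members taken as examples. Some of the genes so named are not reported here. Ratios of genes with few reads are depth-adjusted read ratios with 95% exact intervals, and the floor for a group at 0 is 3 counts over the group. Intervals and floors cover counting error only. The recovered reads numbered 14452156 to 15822864 per library in High and 13390477 to 16520656 in Negative. Mitochondrial messenger genes took 1.37% to 1.61% of the values in High and 4.19% to 5.08% in Negative. Promoters came from a RefSeq table of GRCm38.p6. Other scalings, filters, pseudocounts, weights and fits and the loss of each library were tried.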

Additional observations from a re-analysis of the deposited data

How the results depend on the processing

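Of the choices tried, equal library totals changed the split of higher and lower calls most. With equal library totals 10011 genes were called, 7423 higher and 2588 lower in High, against 4776 and 4278 as deposited, so the share of higher calls depends on the scaling. The sum of higher and lower calls changed by less than 1.5 times under every alternative run. The fewest calls, 7565, came with genes limited to a mean of at least 50, which tests fewer genes. Quantile scaling gave 4467 higher and 5173 lower. edgeR called 9066 genes and DESeq2 9300. Leaving out 1 library at a time gave 8146 to 9691 calls, 4290 to 5075 higher and 3854 to 4616 lower. The fit without the 3 Sublow libraries was added after seeing the data. Calls in the deposited scaling that were also made in the same direction under every alternative, filters aside, numbered 6165.

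The labels do not say that the letters A, B and C pair the libraries, and they were not treated as pairs. Deviations of High and Negative libraries with the same letter correlated at 0.0786, 0.0899 and 0.15 across genes, not all above 0.1. Every library correlated best with its own letter, since the 6 correlations between unlike letters ran from -0.114 to 0.0156, which is a hint of pairing from the data and not from the design. In a fit with the replicate block 9701 genes were called, 5069 higher and 4632 lower.

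Genes near 0 changed sign with the scaling. Rab14 was at 0.486 and 0.368 and Supt6 at 0.48 and 0.431 with equal totals and with quantile scaling, and both were then called higher. Vwf was at 0.471 with equal totals and was called higher there. Of 3068 recounts of list members under the alternatives, 131 moved by over 1.5 times. The mitosis list was the least stable of those named: 5 to 23 genes were called lower with 1 library left out, 2 with equal totals, 19 with quantile scaling, 16 by DESeq2 and 17 with the replicate block. The cause was not tested. Depth limits genes with few reads in Negative, for which ratios have wide intervals.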
